A study of Danio rerio with 16 samples.

Results

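The early injury response of nr4a1 mutant zebrafish hearts was examined by comparing ventricles collected 2 days post cryoinjury (dpci) with uninjured ventricles (0 dpci) of the same mutant genotype. This comparison uses 4 of the 16 RNA-seq samples of the study, 2 per day. A gene was tested when at least 10 reads were counted in at least 2 of these 4 samples, which kept 17440 of the 31351 genes listed and left 13911 untested. The other 12 samples are mutant ventricles at 7 and 21 dpci and wild-type ventricles at all 4 time points, again 2 samples each, and they served to estimate the spread between samples and to set the mutant response beside that of wild type. All samples were whole ventricles of adult fish from which total RNA was extracted with Trizol. Mutants carry the nc40 allele, a single-base insertion made with CRISPR/Cas9 in the second exon of nr4a1 that shifts the reading frame to a premature stop; the transcript itself is still made and its reads are counted with the gene. The other fish are labelled wild type. The number of fish behind a sample and the hour of collection are not given in the sources used here. The paper calls the samples of a condition biological replicates, but does not state that the 2 samples of a day came from separate fish. The p-values therefore measure only the spread between samples of a condition, shared over all 8 conditions, and how much of it is technical cannot be told. That spread was small, with a common coefficient of variation of 3.41% beyond counting error. The p-values and standard errors below may therefore not cover the variation between fish.

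Nr4a1 is an orphan nuclear receptor and an immediate early gene, whose transcription rises quickly after many stimuli, and in mammals it is best known for restraining inflammatory genes in monocytes and macrophages. The zebrafish ventricle regenerates after cryoinjury, in which a cooled probe kills part of the wall. In the first days the dead muscle is invaded by neutrophils and macrophages, a provisional matrix rich in fibronectin is laid down, and epicardium and endocardium are activated, before new cardiomyocytes form.

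The mutant samples held 23618958 and 23283875 counts at 0 dpci and 14881714 and 17121336 counts at 2 dpci, 99.9% of which fell on tested genes. The samples of a day lay close together, at distances of 42.6 and 44.1 on the log2 scale over all tested genes against 142 to 144 between days. Heart muscle genes such as myh7l took many reads in every mutant sample. The 13 mitochondrially encoded genes took 16.9% and 17% of reads at 0 dpci and 12.2% and 11.3% at 2 dpci, values that move with the day. Levels are given below as CPM, the reads of a gene scaled to a common library total with TMM factors, which correct library sizes for such changes in composition. Because CPM is not per transcript length, levels are compared between samples of a gene and not between genes. Liver fabp10a and apoba, which would mark adhering liver, had at most 3 reads in a sample, and the fast skeletal muscle myosin myhz1.1 stayed between 0.58 and 0.99 CPM, whereas the creatine kinase ckma, which heart muscle also makes, was abundant. Of 14 liver markers 6 were tested, and their sum of 87.1 and 88.3 CPM at 0 dpci and 109 and 104 CPM at 2 dpci came almost wholly from transferrin tfa (83.0 and 83.4 CPM, then 106.7 and 101.8 CPM).

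A gene was called higher or lower when its Benjamini-Hochberg adjusted p in edgeR's quasi-likelihood test was under 0.05 and its log2 fold change lay beyond 0.5. By this rule 4532 genes were higher at 2 dpci, 26% of those tested, and 3865 were lower, 22.2%. The increases were the larger ones. Among the called genes the median log2 fold change was 1.15 upwards and -0.96 downwards, and 1032 genes rose by more than 2 on the log2 scale whereas 235 fell by as much. At more than 4 on that scale stood 184 increases and 5 decreases. Over all tested genes the median log2 fold change was 0.01. Lists of genes are read below against these shares, because 48.1% of tested genes were called in one or the other direction. Without overlap between the samples of the days, a looser criterion, 41.7% of tested genes were higher and 40.4% lower. For every called gene named below, both 2 dpci samples lay on the same side of both 0 dpci samples. The scaling matters for the split of calls: with library sizes alone the median of all genes moved to 0.40, and 7358 genes were called higher and 1932 lower. List counts given below with library sizes alone are to be read against these numbers.

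**Figure D1:**
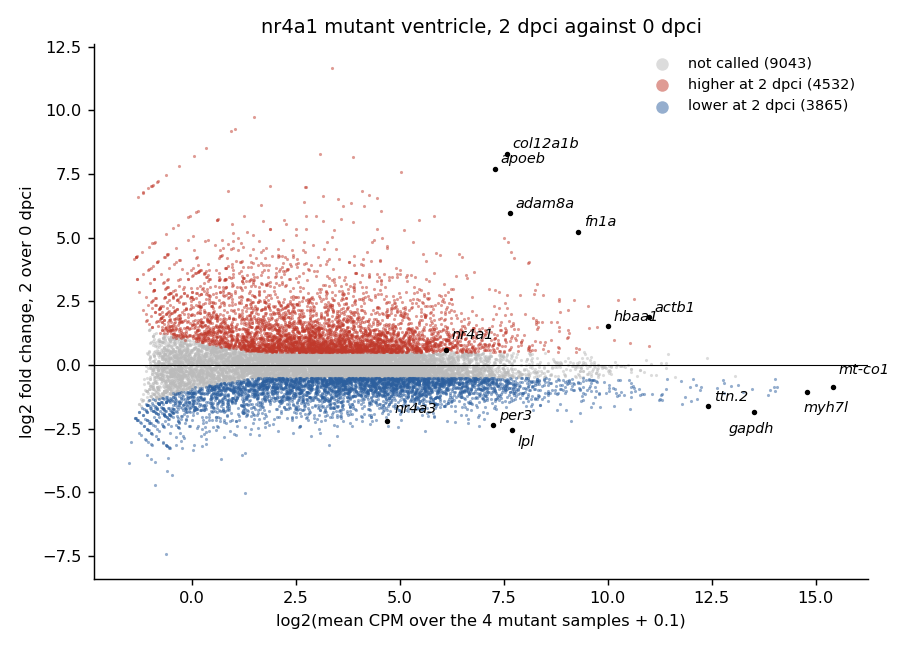
Log2 fold change of 2 over 0 dpci in mutant ventricles (vertical axis) against the mean level of each gene over the 4 mutant samples (horizontal axis, log2 of CPM plus a pseudocount); each point is 1 of 17440 tested genes, red for the 4532 called higher, blue for the 3865 called lower and grey for the rest. The upward side reaches further from 0 than the downward side, and the most abundant genes, such as mt-co1 and myh7l, lie below 0.

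The targeted gene was read in every sample. Mutants had 56.3 and 54.5 CPM of nr4a1 at 0 dpci and 83.8 and 82.5 CPM at 2 dpci, so both injured samples lay above both uninjured ones. The log2 fold change was 0.58 (SE 0.051, adjusted p = 5.6e-16), just past the threshold. Wild types averaged 20.7 CPM at 0 dpci and 86.3 CPM at 2 dpci, a log2 fold change of 2.06, and the smaller response of mutants was called (difference -1.48, SE 0.08, edgeR adjusted p = 8.4e-25). The genotypes were thus closer in level at 2 dpci than at 0 dpci. In mutants the mean rose further to 135 CPM at 7 dpci and 168 CPM at 21 dpci, days that are compared with the same 0 dpci samples.

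The other NR4A receptors did not follow nr4a1. Transcripts of nr4a3 were at 41.7 and 43.0 CPM in uninjured mutants and at 8.41 and 10.1 CPM at 2 dpci, a fall of 4.56-fold with no overlap. In wild types nr4a3 averaged 3.27 CPM at 0 dpci and 4.84 CPM at 2 dpci, below the mutants on both days. The low-expressed nr4a2a also fell in mutants, from 2.41 and 2.95 to 0.81 and 0.79 CPM, and nr4a2b was not called, at 3.92 and 3.09 CPM against 2.49 and 2.53 CPM.

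Immediate early transcription factors were more often higher than lower. Of 24 tested members, 14 rose (58.3%) and 5 fell (20.8%), against 26% and 22.2% of all tested genes. Their median log2 fold change was 0.73. The AP-1 subunits fosl1a, fosl2, junba and junbb rose, fosl2 from 13.1 and 11.2 to 76.0 and 71.0 CPM and junba from 57.0 and 60.1 to 277 and 278 CPM. Also fosab, the zebrafish c-Fos, went from 60.3 and 58.2 to 151 and 154 CPM. The stress-induced factor atf3 went the other way. It stood at 122 and 121 CPM in uninjured mutants and at 61.2 and 58.1 CPM at 2 dpci (log2 fold change -1.03, SE 0.056), whereas wild types rose from a mean of 6.77 to 30.2 CPM. The atf3 level of injured mutants was therefore still above that of injured wild types although the change had the opposite sign. The zinc finger factor klf4 fell from 10.2 and 11.5 to 2.72 and 2.58 CPM.

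Signals of acute inflammation rose. Of 24 tested cytokines, receptors and mediators, 18 were higher and 1 was lower (median log2 fold change 1.29), and 4 of them had under 10 reads in both uninjured samples, so that these could pass the filter only by rising. The pyrogenic cytokine il1b went from 2.69 and 3.53 to 21.6 and 21.1 CPM. Tumour necrosis factor tnfb went from 1.98 and 2.18 to 12 and 11.07 CPM, whereas its paralog tnfa, with at most 9 reads in a mutant sample, was not tested. The prostaglandin synthase ptgs2a went from 5.15 and 4.83 to 33.9 and 31.8 CPM. The leptin genes, of which lepb is known to respond to injury in zebrafish heart and fin, had no read in uninjured mutants. For lepb the 148 reads of the injured samples made it at least 55.2-fold higher against a floor of 3 reads over the group, and for lepa the 53 reads made it at least 19.8-fold higher.

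The interleukin 6 family and its signal chain were among the called genes. Transcripts of il11a, a cytokine whose signalling zebrafish need for regeneration, went from 4.39 and 4.35 to 20.4 and 20.7 CPM. Its paralog il11b rose from 5 to 233 reads, a ratio of 52.2 with a 95% exact counting interval of 22 to 162, which covers counting error only. The shared receptor subunit il6st went from 152 and 147 to 296 and 294 CPM, the transcription factor stat3 from 77.3 and 69.7 to 124 and 116 CPM, and the feedback inhibitor socs3b from 83.6 and 79.9 to 330 and 326 CPM. In wild types stat3 moved down, from a mean of 138 to 92.3 CPM, and the difference in response was called (1.29, SE 0.07).

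Within the NF-kB pathway, the main transcriptional route of these cytokines, 7 of 17 members rose and none fell. The inhibitor nfkbiaa, itself an NF-kB target, went from 17.1 and 15.9 to 57.7 and 58.8 CPM, and the p100 subunit nfkb2 from 23.3 and 24.2 to 59.8 and 56.6 CPM. In wild types nfkb2 fell from a mean of 68.5 to 42.6 CPM. For tnfaip3, the deubiquitinase A20, mutants read 14.2 and 13.2 CPM before and 15.7 and 18.4 CPM after injury, a change that was not called but was called with library sizes alone (log2 fold change 0.71).

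Of 25 chemokines and receptors 16 rose and 3 fell. Of the 25, 2 had under 10 reads in both uninjured samples and could enter the test only by rising. The neutrophil chemokine cxcl8a went from 1.46 and 0.97 to 7.02 and 6.95 CPM, cxcl18b from 15.8 and 17.6 to 111 and 110 CPM, and ccl34a.4 from 14.7 and 16 to 180 and 174 CPM. The homing signal cxcl12a went from 34.9 and 36.7 to 71.3 and 64.2 CPM. Of 32 interferon response genes 21 rose and 1 fell, with a median of 0.80. The antiviral GTPase mxa went from 3.45 and 3.53 to 23.0 and 19.6 CPM and mxb from 0.52 and 0.63 to 6.44 and 6.30 CPM. The antigen presentation light chain b2ml was the member that fell, from 1386 and 1349 to 770 and 698 CPM.

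Markers shared by white cells were higher. All 11 tested genes of a general leukocyte list rose (median log2 fold change 2.45), and their summed level was 222 and 224 CPM before and 1209 and 1197 CPM after injury. The actin regulator coro1a went from 17.5 and 17.5 to 133 and 145 CPM. Plastin lcp1, which bundles actin, went from 49.2 and 49.4 to 328 and 336 CPM, and the phosphatase ptprc (CD45), carried by white cells of all kinds, from 22.4 and 22.6 to 123 and 123 CPM. In whole ventricles a gain or loss of cells of a type and a change of RNA per cell cannot be told apart, which holds for each cell type below.

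Among 22 macrophage markers 18 rose and 1 fell (median 2.1). Perforin mpeg1.1 went from 27.3 and 27 to 106 and 112 CPM, the receptor csf1ra from 19.97 and 21.9 to 72.6 and 81.0 CPM, and marco, a scavenger receptor, from 24.1 and 23.4 to 115 and 117 CPM. The lipid carrier apoeb, which phagocytes release with cholesterol, had the largest gain of the list, from 1.56 and 1.40 to 319 and 305 CPM (log2 fold change 7.71, SE 0.086). It had fallen back to a mean of 15.3 CPM at 7 dpci and 2.93 CPM at 21 dpci. Another apolipoprotein gene, apoc1, rose from 4 to 477 reads, a ratio of 134 with a counting interval of 51.8 to 492. The marker that fell was cd74a, the invariant chain of antigen presentation, from 261 and 269 to 156 and 161 CPM, and with library sizes alone this fall was not called.

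Most neutrophil markers rose, though not all. Of 19 tested markers 12 rose (63.2%) and 2 fell (10.5%), against 26% and 22.2% of all tested genes. The median log2 fold change was 1.30, and the summed level of the list went from 188 and 193 to 754 and 741 CPM. The granule genes mpx, lect2l and npsn were not among the called genes. Myeloperoxidase mpx was at 17.8 and 17.5 CPM in uninjured and 22.2 and 20.9 CPM in injured mutants, a log2 fold change of 0.29 that was not called but became 0.67 and was called with library sizes alone. Granule genes lect2l (8.5 and 10.9 CPM against 9.22 and 9.13 CPM, overlapping between days) and npsn (14.5 and 17.6 CPM against 13 and 12.2 CPM) were not called. Wild types reached a similar mpx mean at 2 dpci, 21.3 CPM, from an uninjured mean of 4.16 CPM. Their lect2l and npsn means were likewise lower than the mutant ones at 0 dpci, at 2.89 and 6.23 CPM. Members that rose in mutants included the oxidase subunits ncf1, cyba and cybb, which macrophages also make, and adam8a, which alone supplied 405 and 385 of the 754 and 741 CPM summed over the list at 2 dpci. Of 14 lymphocyte markers 3 were higher (21.4%) and 2 lower (14.3%), shares not above the 26% and 22.2% of all tested genes. Their summed level went from 27.7 and 24.0 to 51.2 and 48.4 CPM.

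Genes of degradation rose with the phagocyte markers. Of 40 lysosomal genes 29 rose and 2 fell (median 1.2), and their summed level went from 1812 and 1825 to 6504 and 6362 CPM. The cathepsins, the proteases of the lysosome, were the clearest case. Transcripts of ctsz went from 22.3 and 22 to 410 and 400 CPM, and those of ctss2.1 from 18.4 and 18 to 401 and 386 CPM. Cathepsins B and D rose by smaller factors, ctsba from 64.0 and 60.6 to 576 and 556 CPM and ctsd from 92.6 and 90.2 to 612 and 604 CPM. Granulin grn1, a lysosomal growth factor precursor, went from 6.99 and 5.08 to 117 and 121 CPM. The proton pump that acidifies the compartment followed, with 13 of 19 subunits higher and 2 lower, among them atp6v0ca from 104 and 97.5 to 330 and 310 CPM. Heme oxygenase hmox1a, which breaks down heme, went from 19.8 and 21.3 to 118 and 110 CPM, and of 13 complement genes 10 rose and 1 fell, with c1qb at 12.8 and 12.7 CPM before and 91.8 and 87.7 CPM after injury.

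**Figure D2:**
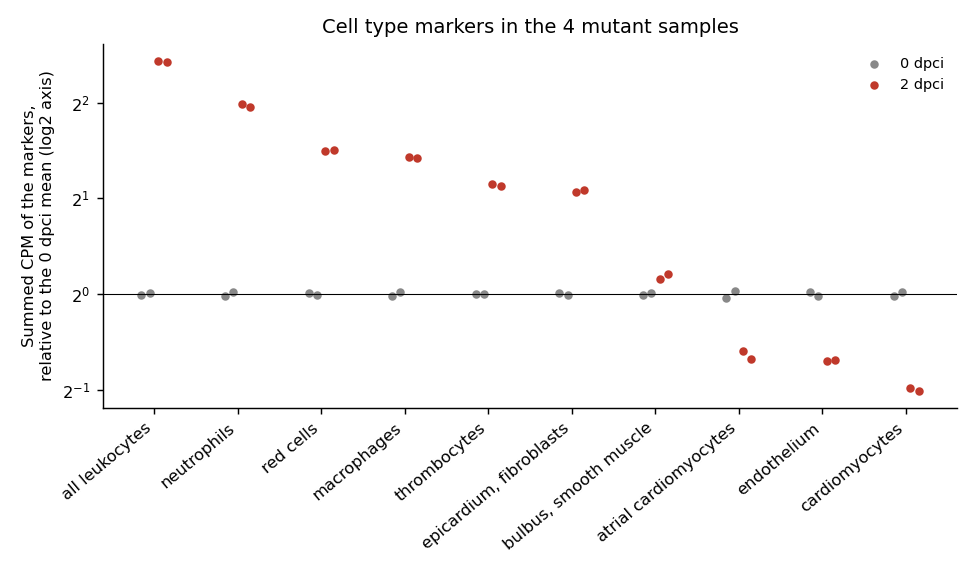
Summed CPM of each cell type marker list in the 4 mutant samples, divided by the mean of the 0 dpci samples (vertical log2 axis); grey points are 0 dpci and red points 2 dpci samples. The samples of a day nearly coincide, with leukocyte markers 5.40-fold above and cardiomyocyte markers 1.99-fold below the uninjured level.

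The extracellular matrix was strongly affected. Of 52 tested matrix genes 35 rose and 5 fell (median 1.01), and their summed level went from 3933 and 3930 to 11734 and 12039 CPM. Of the 52, 3 had under 10 reads in both uninjured samples and 1 in both injured samples. These could enter the test only through the other day. The gene with the largest fold change chosen for naming was col12a1b, a fibril-associated collagen, which went from 1.27 and 1.11 to 368 and 391.9 CPM (log2 fold change 8.31, SE 0.085). Fibronectin, the core of the provisional matrix, was at 33.8 and 31.5 CPM for fn1a before and 1188 and 1264 CPM after injury, and at 351 and 358 against 2085 and 2108 CPM for fn1b. These were among the 8 largest gains of CPM of any gene. The mean of fn1a was still 1180 CPM at 7 dpci and 239 CPM at 21 dpci.

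The fibrillar collagen genes rose with them. Transcripts of col1a1b went from 253 and 243 to 1206 and 1261 CPM, col5a1 from 77.7 and 74.2 to 524 and 533 CPM, and col11a1b from 0.28 and 0.44 to 36 and 39.3 CPM. De-adhesive tenascin tnc went from 1.89 and 1.5 to 66.2 and 68.1 CPM. The hyaluronan side was represented by the synthase has1, from 0.85 and 1.26 to 43.8 and 41.0 CPM, and by the hyaluronan-binding proteoglycan vcanb, from 13.5 and 13.1 to 118 and 123 CPM. Hyaluronan linker hapln1a went from 69.8 and 71.0 to 106 and 102 CPM in mutants and from a mean of 157 to 68.0 CPM in wild types. Periostin postnb went from 19.5 and 24.2 to 62.9 and 61.1 CPM at 2 dpci and reached a mean of 923 CPM at 7 dpci. Basement membrane laminins moved down, lamb2 from 459 and 445 to 258 and 260 CPM and lama5 from 219 and 207 to 101 and 101 CPM, although the fall of lamb2 was not called with library sizes alone.

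Enzymes that act on the matrix and on fibrin also rose, 23 of 40 against 6 that fell. The metalloprotease adam8a went from 6.99 and 5.70 to 405 and 385 CPM, and gelatinase mmp9 from 5.19 and 5.51 to 46.6 and 42.5 CPM. The urokinase plaua, which activates plasminogen, went from 1.23 and 1.98 to 33.8 and 36.5 CPM. An inhibitor rose beside the proteases, timp2b, from 12.8 and 13.8 to 390 and 367 CPM. The transglutaminases f13a1b and tgm2b, which cross-link fibrin and matrix, went from 18.9 and 18.9 to 101 and 92.8 CPM and from 53.2 and 50.03 to 250 and 259 CPM. Of 22 annexin, galectin and S100 genes 12 rose and 1 fell. The membrane repair protein anxa2a made the second largest gain of CPM, from 435 and 464 to 2721 and 2689 CPM, and its partner s100a10b went from 164 and 175 to 490 and 463 CPM. Cytoskeletal actin actb1 made the largest, from 877 and 863 to 3197 and 3168 CPM, and the simple epithelial keratin krt8 went from 1516 and 1554 to 2532 and 2563 CPM.

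The remaining genes with the largest fold increases were of mixed function. Endothelial lipase lipg had 4 reads in uninjured and 1095 in injured mutants, a ratio of 306 with a counting interval of 119 to 1127. Galectin lgals2b went from 4 to 490 reads, a ratio of 137 with an interval of 53.2 to 505. The chemokine receptor ccr12b.2 went from 0.24 and 0.34 to 36.6 and 31.0 CPM. Guanine deaminase gda, an enzyme of purine breakdown, went from 0.19 and 0.73 to 43.2 and 43.3 CPM. All of these were near 0 in uninjured hearts, so their fold changes rest on few reads on that side. The secreted ADAMTS-like gene adamtsl7 went from 0.14 and 0.53 to 28.5 and 27.1 CPM and the collagen gene col11a1a from 0.09 and 0.34 to 12.7 and 13.2 CPM. The same limit holds for them, with 3 and 11 uninjured reads for adamtsl7 and 2 and 7 for col11a1a. The tetraspanin cd9b was read more often before injury, at 1.98 and 1.89 CPM, and reached 111 and 111 CPM.

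**Figure D3:**
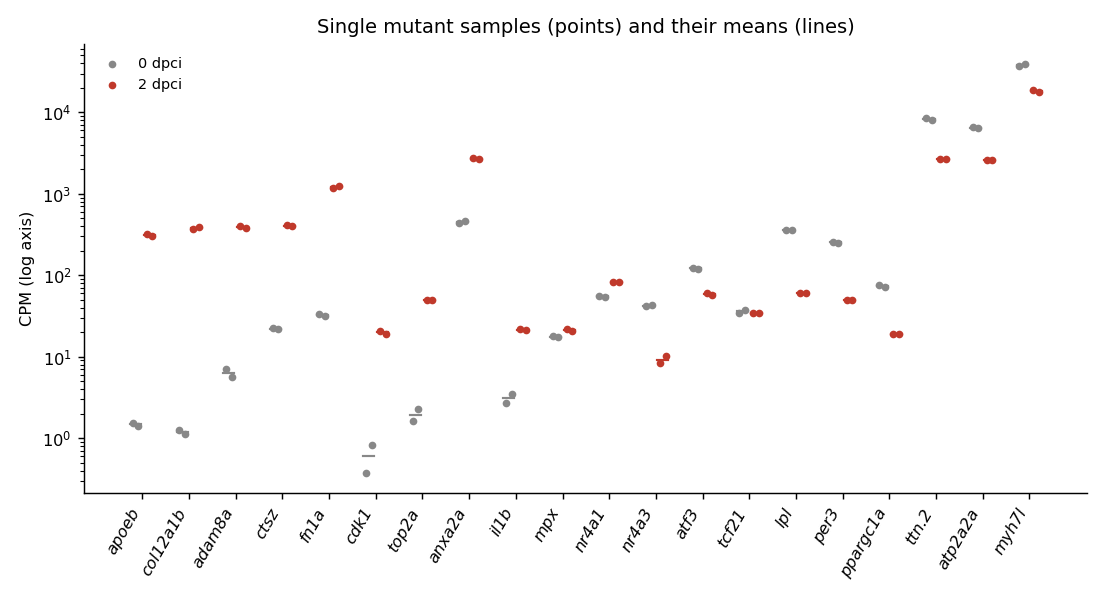
Level of selected genes in each mutant sample (vertical log axis, CPM); grey points are 0 dpci, red points 2 dpci, and short lines the means of 2 samples. Points of a day lie close to each other for nearly every gene, tcf21 overlaps between days, and mpx differs little, while apoeb and col12a1b rise by more than any other gene shown.

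Cell cycle genes rose almost without exception. Of 69 tested mitosis genes 68 were called higher and none lower, with a median log2 fold change of 3.96, and their summed level went from 119 and 117 to 902 and 901 CPM. Among them 18 had under 10 reads in both uninjured samples and so could enter the test only by rising, and the list serves as a description. The kinase cdk1, which drives entry into mitosis, went from 0.38 and 0.82 to 20.8 and 19.1 CPM, and its cyclin ccnb1 from 2.64 and 1.93 to 18.2 and 14.7 CPM. Topoisomerase top2a, which untangles chromosomes, went from 1.61 and 2.27 to 49.2 and 49.8 CPM. The proliferation antigen mki67 went from 2.79 and 2.37 to 42.5 and 44.9 CPM. Kinases of the spindle and of cytokinesis moved alike, aurkb from 0.66 and 0.82 to 11.2 and 10.1 CPM and plk1 from 0.94 and 1.64 to 14.4 and 14.4 CPM. The exception was the midbody kinesin kif23, at 19.5 and 16.7 CPM before and 22.4 and 20.8 CPM after injury. With library sizes alone it was called too (log2 fold change 0.64), which made 69 of 69. Mean levels of cdk1 were 9.30 CPM at 7 dpci and 2.66 CPM at 21 dpci.

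Genes of DNA replication moved less far, with 55 of 61 higher, none lower and a median of 2.32. Of the 61, 6 had under 10 reads in both uninjured samples and could enter the test only by rising. Thymidylate synthase tyms went from 0.57 and 0.87 to 17.9 and 16.6 CPM. The subunits mcm2 and mcm5 of the replicative helicase went from 4.11 and 3.96 to 54.7 and 58.0 CPM and from 4.48 and 4.64 to 41.6 and 42.2 CPM. The sliding clamp pcna, which was read often in uninjured hearts too, went from 31.7 and 33.1 to 117 and 118 CPM. Which cells carried these transcripts was not measured in whole ventricles, and the leukocyte and matrix genes moved with them.

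Growth factors and their receptors went both ways, with 12 of 52 higher (23.1%) and 20 lower (38.5%), against 26% and 22.2% of all tested genes. With library sizes alone 17 were higher and 14 lower, and their median of -0.11 became 0.28. The EGF family ligand hbegfb went from 1.51 and 2.13 to 30.4 and 25.6 CPM. The retinoic acid synthase aldh1a2, which marks activated epicardium and endocardium, went from 151 and 143 to 481 and 472 CPM, and the insulin-like growth factor igf2b from 36.7 and 37.2 to 102 and 103 CPM. Lower were the angiogenic factor vegfab, from 249 and 250 to 128 and 127 CPM, the neuregulin co-receptor erbb2, from 41.0 and 37.0 to 17.4 and 19.3 CPM, and the activin subunit inhbb, from 52.1 and 53.6 to 8.99 and 10.4 CPM.

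Protein folding genes parted by compartment. In the endoplasmic reticulum 28 of 40 chaperones and unfolded protein response genes rose and 1 fell (median 0.96), with hspa5 (BiP) at 188 and 184 CPM before and 601 and 609 CPM after injury and hsp90b1 at 128 and 130 against 470 and 454 CPM. The disulfide isomerase pdia4 went from 25.3 and 24.5 to 117 and 109 CPM and the response factor xbp1 from 174 and 165 to 310 and 316 CPM. Cytosolic heat shock genes went down, 23 of 36 lower and 2 higher (median -0.63), or 15 and 3 with library sizes alone. The inducible hsp90aa1.1 fell from 486 and 506 to 165 and 170 CPM, the myosin chaperone unc45b from 492 and 484 to 189 and 201 CPM and bag3 from 168 and 160 to 87.4 and 84.4 CPM. The constitutive hspa8 rose, from 1059 and 1056 to 1912 and 1900 CPM. The proteasome rose as a body, with 38 of 43 subunits higher, none lower, a median of 0.80 and psma2 at the upper end, from 14.9 and 14.4 to 41.0 and 37.1 CPM. Of 80 cytosolic ribosomal proteins 6 were higher and 1 lower, with a median of -0.05 that became 0.34 with library sizes alone, and rps12 rose from 271 and 278 to 431 and 407 CPM.

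Of 45 cell death genes 18 were higher and 6 lower with a median of 0.38, and with library sizes alone 27 were higher and 3 lower with a median of 0.77. The ubiquitin ligase mdm2 rose from 21.1 and 21.0 to 48.1 and 48.6 CPM. Also higher were the cell cycle inhibitor cdkn1a, from 3.87 and 3.38 to 10.3 and 9.28 CPM, and the BH3-only protein bbc3 (PUMA), from 1.27 and 1.16 to 3.88 and 4.22 CPM. The death receptor fas and the executioner casp3a also rose, the latter from 13.9 and 15.9 to 41.3 and 40.3 CPM. The mitophagy receptor bnip3 fell from 36.5 and 36 to 10.6 and 12 CPM.

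Heart muscle genes fell. Of 18 tested cardiomyocyte markers 16 were lower and none higher (median -0.93), and their sum went from 116945 and 119703 to 60032 and 58532 CPM, 1.99-fold lower. With library sizes alone 10 of the 18 were still called lower and none higher. The ventricular myosin myh7l fell from 37572 and 38810 to 18623 and 18003 CPM, actin actc1a from 15341 and 14662 to 7908 and 7769 CPM, and the giant protein titin (ttn.2) from 8413 and 8145 to 2678 and 2702 CPM. Light chains myl7 and cmlc1 fell by 0.78 and by 0.82 on the log2 scale, changes that were not called with library sizes alone. Over the whole sarcomere list 37 of 52 genes fell and 6 rose, or 24 and 9 with library sizes alone. The Z-disc protein tcap was among the steepest, from 190 and 195 to 49.4 and 48.6 CPM, while the desmin gene desma, at 1796 and 1824 CPM before and 2030 and 2117 CPM after injury, was not called, but with library sizes alone it was called higher, at 0.58 on the log2 scale.

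Calcium handling and conduction fell by a similar amount, 25 of 39 genes lower and 2 higher with a median of -0.82. The calcium pump atp2a2a went from 6574 and 6436 to 2583 and 2628 CPM, its regulator pln from 3503 and 3500 to 1420 and 1316 CPM and the release channel ryr2b from 1707 and 1677 to 716 and 726 CPM. The sodium channel scn5lab fell from 156 and 150 to 43.8 and 47.0 CPM, the pacemaker channel hcn4 from 19.9 and 18.9 to 4.75 and 4.42 CPM and the muscarinic receptor chrm2a, which slows the heart, from 9.91 and 10.2 to 1.45 and 2.33 CPM. Cardiac transcription factors gata4 and tbx20 fell from 56.7 and 62.2 to 22.5 and 26.9 CPM and from 72.8 and 66.1 to 33.5 and 35.6 CPM. Load-responsive genes did not follow them as a group. The natriuretic peptide nppb rose from 252 and 269 to 458 and 441 CPM and the strain-induced ankyrin repeat gene ankrd1a from 1.94 and 2.32 to 32.8 and 32.4 CPM, whereas nppa fell from 4083 and 4306 to 2794 and 2640 CPM, a fall that was not called with library sizes alone.

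Transcripts of energy metabolism were mostly lower at 2 dpci in mutants, though less evenly. All 13 mitochondrially encoded genes were lower (median -0.96), mt-co1 from 55774 and 56616 to 32560 and 29821 CPM and mt-cyb from 21872 and 22529 to 11411 and 10357 CPM. Together mt-co1, mt-cyb, mt-co2, mt-co3 and mt-atp6 made 5 of the 8 largest losses of CPM, beside myh7l, gapdh and the ATP carrier slc25a5. With library sizes alone 8 of the 13 were still called lower, and mt-co1, mt-co3 and mt-atp6 were not. Nuclear-encoded subunits changed less: 17 of 44 in complex I fell and 1 rose, 7 of 27 in complexes III and IV fell and 3 rose, and 11 of 19 of ATP synthase fell and none rose. With library sizes alone these were 2, 2 and none lower, so that the calls on nuclear-encoded subunits depended on the scaling. The 25.9% lower in complexes III and IV was also near the 22.2% of all tested genes. The complex IV subunit cox6a1 rose, from 22 and 23.9 to 84.0 and 81.2 CPM. Of 32 genes of the citric acid cycle 18 fell and 2 rose, or 7 and 2 with library sizes alone, with idh2 at 2441 and 2451 CPM before and 1073 and 1070 CPM after injury.

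Genes of fatty acid use and of glycolysis were more often lower than higher. With library sizes alone this balance narrowed. In that setting all tested genes shifted upwards, with 7358 higher, 1932 lower and a median of 0.40. Of 55 fatty acid genes 22 fell and 7 rose (median -0.43), or 12 and 9 with library sizes alone (median -0.04). Lipoprotein lipase lpl, which frees fatty acids from lipoproteins for the muscle, fell 5.90-fold, from 359 and 357 to 60.9 and 60.4 CPM. The acyl-CoA synthetase acsl1b went from 1178 and 1178 to 497 and 487 CPM, the first dehydrogenase of the cycle acadvl from 2598 and 2601 to 1190 and 1180 CPM and the mitochondrial import enzyme cpt1ab from 292 and 298 to 176 and 166 CPM, the last of which was not called with library sizes alone (-0.40 on the log2 scale). Their transcriptional regulators ppargc1a and esrra fell from 76.5 and 71.9 to 18.8 and 18.9 CPM and from 76.5 and 79.4 to 27 and 29.5 CPM. Of 49 glycolytic genes 23 fell and 9 rose, and with library sizes alone 14 fell and 13 rose. The glycolytic dehydrogenase gapdh fell from 18090 and 18433 to 5185 and 5066 CPM, whereas hexokinase hk2 rose from 6.04 and 5.41 to 67.8 and 64.1 CPM.

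Genes of the circadian clock formed the other large group of decreases. Of 38 tested members 20 fell and 11 rose (median -0.92), and with library sizes alone these were 19 and 13. Period genes, the repressors of the loop, fell together, per2 from 162 and 161 to 36.6 and 37.1 CPM, per3 from 259 and 252 to 49.3 and 49.6 CPM and per1a from 18 and 19.8 to 3.48 and 3.72 CPM. The repressor of its other arm, nr1d1 (Rev-erb alpha), fell from 41.6 and 39.5 to 10.3 and 9.48 CPM. The output factor tefa fell from 212 and 218 to 56.1 and 60.2 CPM. Members of the opposite arm rose, the activators arntl1a and arntl2 from 6.80 and 6.77 to 17.1 and 18.6 CPM and from 1.09 and 0.87 to 7.25 and 6.55 CPM. The D-box repressor nfil3-5 rose most of the list, from 2.12 and 3.19 to 32.4 and 29.9 CPM. Because these genes cycle daily and the hour of collection is not given, an effect of injury and one of the hour cannot be told apart here. Of the 12 largest decreases chosen by fold, per1a and per3 belong to this group.

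The other genes named for their decrease were of varied function. The secretin receptor sctr had the largest fall of them, from 19.97 and 19.4 to 2.72 and 2.88 CPM, and the cytochrome cyp1b1 fell from 85.6 and 81.5 to 14.1 and 13.2 CPM. The phosphatase dusp10, which inactivates stress kinases, fell from 25.6 and 23.1 to 4.35 and 4.76 CPM, and the CREB family factor creb5a from 44.6 and 44.2 to 8.81 and 7.94 CPM. Lower by similar factors were dystrotelin (dytn), from 14.5 and 13.6 to 3.13 and 1.89 CPM, stxbp6l, from 10.6 and 9.62 to 2.26 and 1.59 CPM, and the cadherin cdh26.1, from 17.2 and 18.3 to 3.65 and 3.28 CPM.

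**Figure D4:**
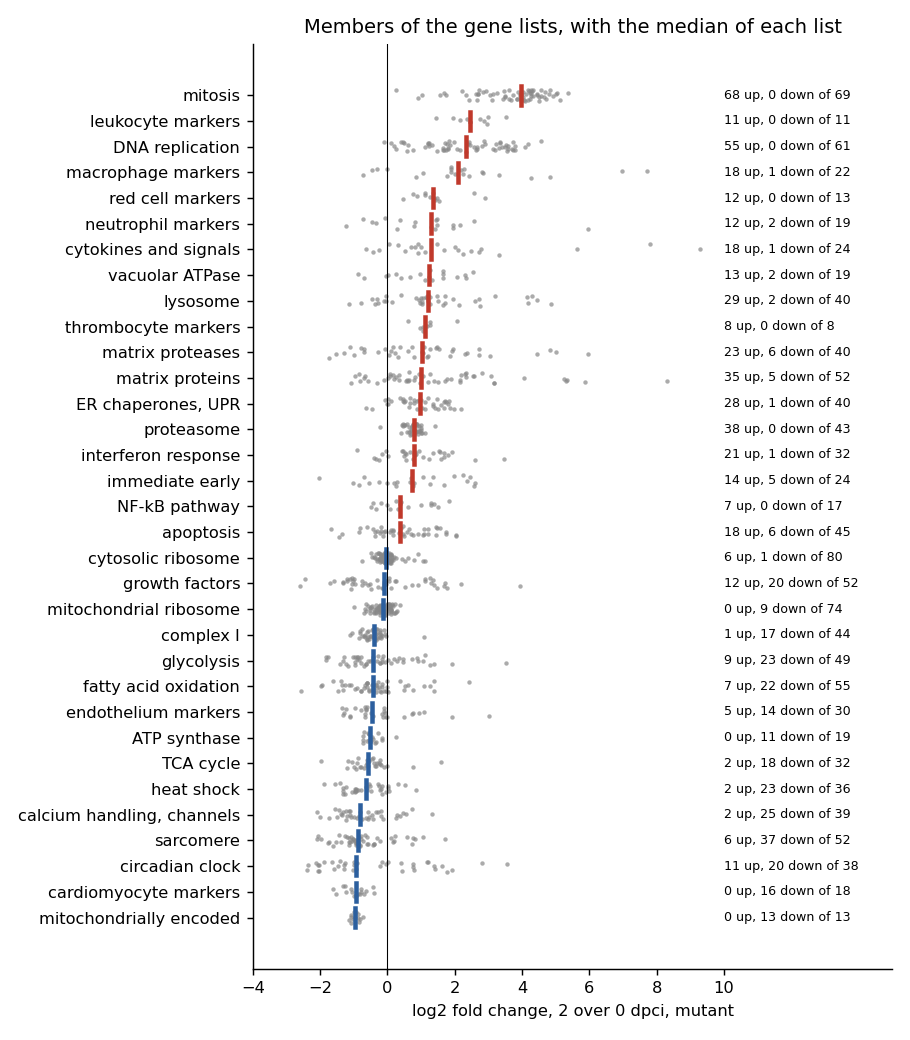
Log2 fold change of 2 over 0 dpci in mutants (horizontal axis) for the tested members of selected gene lists (grey points), with the list median (red above 0, blue below) and the number called up and down at the right. Among the lists drawn, mitosis genes stand furthest to the right, at a median of 3.96, and the mitochondrially encoded and cardiomyocyte genes furthest to the left, at -0.96 and -0.93.

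The blood and wall cell lists differed among themselves. Red cell genes rose, 12 of 13 and none lower. The alpha globin hbaa1 went from 542 and 530 to 1515 and 1565 CPM and the beta globin hbba1 from 393 and 404 to 1090 and 1103 CPM. The heme synthesis enzyme alas2 went from 43.4 and 36.7 to 87.8 and 84.0 CPM and the anion exchanger slc4a1a from 21.3 and 23.7 to 59.5 and 57.3 CPM. The summed red cell markers went from 1157 and 1146 to 3235 and 3272 CPM, and their part in other results was not tested. All 8 tested thrombocyte markers rose. Of 30 endothelial and endocardial markers 14 fell and 5 rose. With library sizes alone they were 7 against 7, while the median of all tested genes moved to 0.40. The VEGF receptors kdrl and flt1 fell from 528 and 519 to 250 and 232 CPM and from 167 and 166 to 64.1 and 69.2 CPM. The endocardial Notch receptor notch1b fell from 439 and 423 to 162 and 187 CPM. The tight junction gene cldn5b was the clearest exception, from 4.72 and 4.50 to 38.3 and 35.8 CPM.

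Of 19 epicardial and fibroblast markers 10 rose and 3 fell. The lineage factors tcf21 and tbx18 overlapped between days, at 34 and 37.9 against 34 and 34.3 CPM and at 37.9 and 33.5 against 35.3 and 35.7 CPM, and the receptor pdgfra (64.4 and 63.4 against 58.1 and 57.0 CPM) was not called. The activation marker wt1b went from 2.36 and 1.98 to 17.5 and 15.6 CPM, and clusterin clu from 66.0 and 66.6 to 310 and 321 CPM. The smooth muscle actin acta2 was at 75.2 and 70.0 CPM before and 84.1 and 79.3 CPM after injury and was not called, but with library sizes alone it was called higher, at 0.56 on the log2 scale.

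Wild-type ventricles were compared over the same genes to see where the mutant response differed. In wild types 4133 genes (23.7%) were higher and 3388 (19.4%) lower at 2 dpci. The genes called higher in both genotypes were 2947, 65.0% of the mutant and 71.3% of the wild-type list, and those called lower in both were 2144, 55.5% and 63.3%. Opposite calls were made for 99 genes higher in mutants and lower in wild types and for 139 the other way. The difference of the responses was itself called for 4113 genes (23.6%), larger in mutants for 2047 (11.7%) and smaller for 2066 (11.8%), where larger means a more positive log2 fold change. For 5682 of the genes called in mutants, 67.7%, no difference was called, which does not show that the responses were equal. A difference can arise at either day, so levels in both genotypes are given for most genes described below.

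No difference was called for ttn.2, top2a and ctsz. Their wild-type means went from 9128 to 2857 CPM for ttn.2, from 2.32 to 59.3 CPM for top2a and from 19.7 to 335 CPM for ctsz. The medians of the mitosis list (3.96 in mutants, 3.75 in wild types) and of the cardiomyocyte list (-0.93 and -0.82) were also near each other.

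The matrix list held differences mostly of 1 sign, 25 of 52 more positive in mutants and 1 more negative. In wild types col12a1b went from a mean of 6.56 to 187 CPM, so mutants started lower and ended higher (difference 3.47, SE 0.17). The same held for fn1a, with wild-type means of 68.0 and 820 CPM (difference 1.64, SE 0.06), for col1a1b with 470 and 941 CPM (1.31, SE 0.04), and for anxa2a with 924 and 1352 CPM (2.04, SE 0.04). For tnc the injured means were close, 67.1 CPM in mutants and 62.4 CPM in wild types, and the uninjured wild-type mean was 4.87 CPM (1.62, SE 0.19). The low-expressed collagen regulator cthrc1a went from 0.28 and 0.39 to 2.44 and 3.23 CPM in mutants and was at 2.67 and 1.91 CPM in wild types (3.55, SE 0.43). Differences were also mostly positive in the endoplasmic reticulum list, 20 of 40 against 2, for example p4hb at 113 and 111 against 199 and 184 CPM in mutants and at wild-type means of 203 and 139 CPM (1.32, SE 0.07). In the NF-kB list 9 of 17 differences were positive and none negative, in the epicardial and fibroblast list 10 of 19 against 1, and in the red cell list 8 of 13 against none. Uninjured wild types had more of the globins, with means of 867 CPM for hbaa1 and 902 CPM for hbba1, and similar levels at 2 dpci, 1433 and 1198 CPM.

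Neutrophil and fatty acid genes were among those with differences of the opposite sign. Others included heme and iron genes, with 7 of 19 more negative and none more positive, and immediate early genes, with 7 of 24 against 1. Of 40 lysosomal genes 8 were more negative and 3 more positive, and of 74 mitochondrial ribosomal proteins 9 and none. In the neutrophil list 8 of 19 were more negative in mutants and none more positive, with mpx at -2.07 (SE 0.18) and ncf1, from a wild-type mean of 3.79 to 15.6 CPM against 11.61 and 11.12 to 19.8 and 19.7 CPM in mutants, at -1.24 (SE 0.17). For mmp9 the wild-type means were 2.36 and 89.0 CPM, so wild types started lower and ended higher (-2.18, SE 0.18). In the fatty acid list 14 of 55 were more negative and 3 more positive. For lpl the wild-type means were 140 and 96.7 CPM, below the mutants before and above them after injury (-2.02, SE 0.06). For acadvl they were 2038 and 1890 CPM (-1.02, SE 0.04) and for acsl1b 794 and 713 CPM (-1.10, SE 0.04), neither of which was called changed in wild types.

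The genes with the largest genotype differences, chosen by rule, often stood apart already at 0 dpci. The troponin gene tnni1d went from 2.97 and 4.21 to 31.9 and 28.9 CPM in mutants and from a mean of 41.7 to 7.67 CPM in wild types. Cyclin F (ccnf) went from 0.52 and 0.34 to 7.83 and 8.93 CPM against wild-type means of 15.6 and 7.36 CPM, and nfil3-5 had wild-type means of 113 and 79.5 CPM. The desaturase scd, at 3.78 and 4.16 CPM before and 1.28 and 1.19 CPM after injury in mutants, had wild-type means of 64.8 and 2.14 CPM. In the other direction, the lectin-like receptor illr1 had no read in uninjured and 1014 reads in injured wild types, at least 419-fold higher, while mutants went from 0.76 and 0.39 to 31.1 and 26.0 CPM. The fitted difference of illr1 depends on the prior count added to 0 and is no measure of size. The natriuretic peptide clearance receptor npr3 fell from 34.2 and 32.1 to 9.22 and 8.24 CPM in mutants and had wild-type means of 3.96 and 7.65 CPM, and the transcription factor zbtb16a fell from 29.1 and 30.8 to 14.1 and 13.3 CPM against wild-type means of 7.51 and 22.2 CPM.

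**Figure D5:**
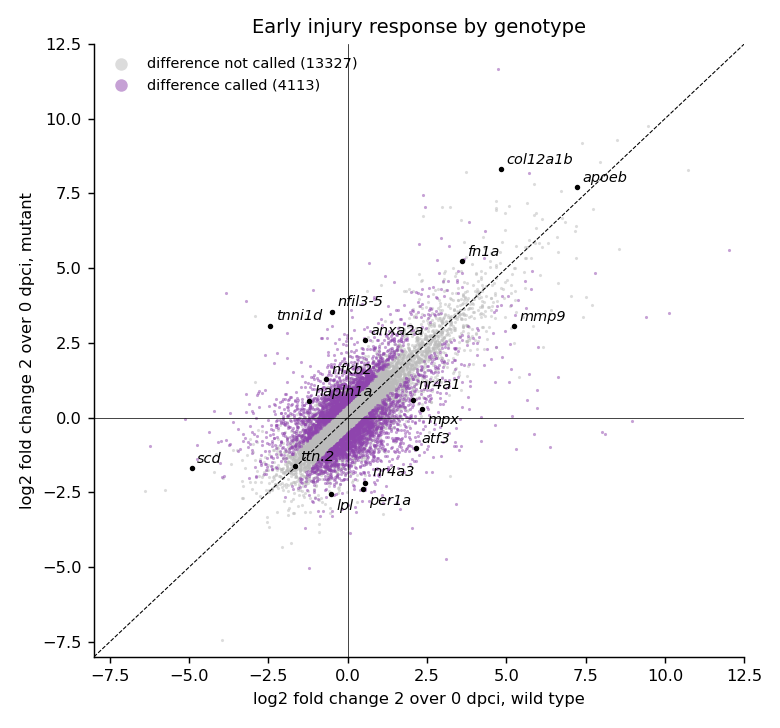
Log2 fold change of 2 over 0 dpci in mutants (vertical axis) against that in wild types (horizontal axis) for the 17440 tested genes; purple points are the 4113 genes whose difference was called, grey points the others, and the dashed line marks equal responses. The cloud follows the line, with col12a1b and tnni1d above it and nr4a1, mpx and atf3 below it.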

How the data were processed

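RNA-seq gene counts of whole adult zebrafish ventricles were used, from nr4a1 mutants and wild types at 0, 2, 7 and 21 dpci with 2 samples per condition. The counts are whole reads per gene that the authors deposited as 1 table of 16 columns without normalization. FastQC, STAR, featureCounts and the GRCz11 (danRer11) build are named in the submitters' processing notes without versions, and the strand setting is not given in the sources used here, so overlapping and antisense genes, and near-identical copies such as paralogous globin or heat shock genes, may share reads. No per-sample column was left unused. Symbols are those of the table.

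The analysis used edgeR 4.0.16 and limma 3.58.1 under R 4.3.3. All 16 samples entered 1 quasi-likelihood model with a coefficient for each of the 8 conditions, TMM factors and no covariate; the study's methods mention batch effects, but no label names a batch. The minimum for a test was 10 counts, reached by 2 or more of the 4 mutant 0 and 2 dpci samples. Of all tested genes 457 stayed under 10 counts in both 0 dpci samples and 449 in both 2 dpci samples. These could be tested only through their other day. The contrasts were mutant 2 minus 0 dpci, the same in wild types, and the difference of these responses. Calls needed a Benjamini-Hochberg adjusted p under 0.05 over all genes tested and a log2 fold change beyond 0.5, the cut-offs of the study. The test was first run on simulated counts in which few genes changed and the spread was that of the fit. That run checks neither the size of the spread nor the scaling used here.

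The members and the gene lists were chosen with earlier results of these data known, so list counts are descriptions, given beside the shares of all tested genes. The genes named were nr4a1, list members described by role, the 12 largest called increases and decreases by fold and the 8 largest genotype differences in each direction (non-overlapping samples, mean of at least 10 CPM in a condition, clone names passed over, which were 9 among the increases and 4 among the decreases), and the 8 largest gains and losses of CPM. After the table was read, kinases and other genes caught by name patterns of the ribosome, proteasome and lymphocyte lists were removed from them. Ratios of genes with few reads carry exact 95% counting intervals, which cover counting error only, as reads are not independent molecules. Sample numbers did not pair samples: deviations of same-numbered mutant samples from their means at 0 and 2 dpci correlated at -0.03. The alternatives were other size factors, other count filters, DESeq2 1.42.0, a fit of fewer samples, other fold thresholds, a block for the sample number and leaving out each sample. A few list members are not reported here. No sequences are shown, because no sequence table of this organism was used here.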

Additional observations from a re-analysis of the deposited data

Results flagged for a closer look

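The results listed here stood out because the change from 0 to 2 dpci differed between genotypes in edgeR's test of the difference (mutant minus wild-type log2 fold change, 2 samples per condition, every adjusted p under 0.05). They are the members of the lists and the rule-chosen genes whose difference the report gives or names, and no explanation was weighed. Many of them differ between genotypes already in level at 0 dpci. Wild-type levels are not given for all of them, and a value alone does not show which genotype was higher on either day.

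Of the 4 NR4A receptors 3 had smaller values in mutants, nr4a1 at -1.48, nr4a2a at -1.53 and nr4a3 at -2.75, while no difference was called for nr4a2b. The value of atf3 was -3.19. Cytokine signalling held both signs, il11a at -1.26 and stat3 at 1.29. Means of il11a at 0 and 2 dpci were 4.37 and 20.6 CPM in mutants and 0.59 and 6.69 CPM in wild types. Mutants were thus above wild types on both days for il11a. Positive values were found for nfkb2 at 1.98, nfkbiaa at 1.51 and mxa at 1.46. Negative ones were those of il1b at -0.82, cxcl8a at -1.44, mpeg1.1 at -0.61 and fosab at -0.67, which were not part of the processing checks below. Called differences were 4 positive and 4 negative in the cytokine list and 2 and 2 in the chemokine list. In the macrophage list they were 4 and 1, and in the immediate early list 1 and 7. The neutrophil genes mpx, lect2l, npsn and ncf1 stood at -2.07, -1.50, -1.29 and -1.24, and the gelatinase mmp9 at -2.18.

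Matrix and repair genes were more positive in mutants. Values were 3.47 for col12a1b, 3.55 for cthrc1a, 2.04 for anxa2a, 1.76 for hapln1a, 1.64 for fn1a, 1.62 for tnc and 1.31 for col1a1b. The cell death gene bbc3, the cell cycle inhibitor cdkn1a and the ubiquitin ligase mdm2 had 2.26, 1.61 and 0.88. Means of bbc3 at 0 and 2 dpci were 1.22 and 4.05 CPM in mutants and 8.49 and 5.87 CPM in wild types. Mutants were thus below wild types on both days for bbc3. For cdkn1a the means were 3.63 and 9.80 CPM in mutants and 8.14 and 7.18 CPM in wild types. For mdm2 they were 21.1 and 48.4 CPM in mutants and 31.1 and 38.8 CPM in wild types. The endoplasmic reticulum genes p4hb and hsp90b1 had 1.32 and 0.86. Cell cycle genes held both signs, mcm2 at 1.45, ccnf at 5.36 and ccnb1 at -1.75. In the mitosis list 6 of 69 differences were positive and 8 negative, and in the DNA replication list 12 of 61 were positive and 2 negative. The ccnb1 difference was not part of the processing checks below.

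Clock genes held both signs, per1a at -2.88, nfil3-5 at 4.06 and arntl1a at 1.44. In metabolism lpl had -2.02, acsl1b -1.10, acadvl -1.02 and cpt1ab -0.80, whereas hk2 had 1.54. The globins hbaa1 and hbba1 had 0.80 and 1.05, and the Z-disc gene tcap had -1.64.

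The remaining genes were chosen only for the size of their difference. Values were 5.52 for tnni1d, 3.54 for gstm.2, 3.23 for scd, 3.21 for notum2 and 2.69 for sgsm2. On the negative side illr1 had -6.41, a fitted value that rests on a wild-type count of 0, fbxo25 had -3.51, grn2 -2.95, npr3 -2.88 and zbtb16a -2.69. The value of grn2 rests on 7 wild-type reads at 0 dpci. Its means at 2 dpci were 38.7 CPM in mutants and 34.2 CPM in wild types, and it was called higher in both genotypes.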

How the results depend on the processing

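The mutant counts of 4532 genes higher and 3865 lower stayed within 1.5 times under other size factors, TMM without the 50 most abundant genes, both count filters, a fit of the contrast's samples alone, DESeq2 (4293 and 3676) and glmTreat (3384 and 2824). With library sizes alone they became 7358 and 1932, and with a log2 threshold of 1 they became 2616 and 1798. The genotype differences, 2047 more positive and 2066 more negative, became 935 and 920 with glmTreat and 831 and 983 with a threshold of 1; nr4a1, at 0.58, was then not called in mutants either. Leaving out 1 mutant sample at a time gave 4277 to 4478 genes higher and 3468 to 3707 lower, and leaving out 1 of the 8 samples of both genotypes gave 1873 to 1994 and 1841 to 1944 differences. The mutant nr4a1 change then ranged from 0.56 to 0.62. In these fits the lone sample of a day is taken to vary like the other conditions. With the sample number as a replicate block, 4523 genes were higher and 4521 of them were shared with the fit without it; 3855 were lower, 3846 shared; the differences were 2026 and 2047, and no named call changed. Sample numbers did not pair the samples.

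Directions reversed only for genes that were not called. With library sizes alone lect2l, npsn, tcf21, tbx18 and pdgfra had log2 fold changes of 0.31, 0.036, 0.32, 0.38 and 0.24. For tbx18 the sign also turned with the 50 most abundant genes left out of TMM (0.019) and with no count filter (0.034). Leaving out 1 sample turned the sign of lect2l (-0.25 to 0.11), tcf21 (-0.15 to 0.0074) and tbx18 (-0.093 to 0.082). Single calls were lost for the nr4a2a difference without wild-type 2 dpci sample 2 (-1.14) and for sgsm2 in mutants without 2 dpci sample 2 (0.45), and nr4a2b was called lower without 0 dpci sample 2 (-0.64). With glmTreat the mutant increases of hapln1a (0.56) and sgsm2 (0.64) were no longer called. The causes were not tested. Depth limits the rarest genes, such as tnfa and il10, which had too few reads to be tested.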

Other observations

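Later mutant samples show how long the 2 dpci levels lasted. They are set beside the early values only, since the 7 and 21 dpci comparisons share the 0 dpci samples. The lipid carrier gene apoeb and the tetraspanin gene cd9b had mutant means of 15.3 and 11.4 CPM at 7 dpci, far below their 2 dpci levels, and 2.93 and 3.35 CPM at 21 dpci. Matrix genes stood differently. The mean of col12a1b was 302 CPM at 7 dpci and 61.0 CPM at 21 dpci, that of col11a1b 191 and 58.2 CPM, and that of col1a1b 2467 and 1312 CPM, both above the 2 dpci samples. Clusterin (clu) reached 1292 CPM at 7 dpci and 185 CPM at 21 dpci.

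Heart muscle and metabolic genes were nearer to their uninjured level at 21 dpci than at 7 dpci. The mean of myh7l was 22998 CPM at 7 dpci and 43368 CPM at 21 dpci, that of ttn.2 3259 and 6879 CPM, that of atp2a2a 3678 and 5961 CPM and that of acadvl 1508 and 1993 CPM. For lpl the means were 153 and 187 CPM, both above the 2 dpci samples and below the 0 dpci samples. The immediate early genes fosab and egr1 were at 307 and 368 CPM at 7 dpci and at 306 and 394 CPM at 21 dpci, above their 2 dpci levels on both days.

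In 3 further lists the counts depended on the scaling. Those of all tested genes did too, 4532 higher and 3865 lower against 7358 and 1932 with library sizes alone. Of 74 mitochondrial ribosomal proteins 9 were lower and none higher, but 1 lower and 9 higher with library sizes alone. Of 10 bulbus and smooth muscle markers 2 were higher and 2 lower (20% each), not above the 26% and 22.2% of all tested genes. With library sizes alone they were 6 and 1. Of 19 heme and iron genes 6 were higher (31.6%) and 1 lower (5.26%), the higher share near the 26% of all tested genes. With library sizes alone they were 10 and 1.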
